A study of Mus musculus with 3 samples.

Results

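Small nucleolar RNAs (snoRNAs) were examined in 3 mouse mammary tumours as the rows of the deposited gene tables whose symbol begins with Snora or Snord followed by a digit. The rule found 113 of 22310 rows, which carry 103 of 21881 symbols: 37 rows and 36 symbols of the H/ACA class (Snora) and 76 rows and 67 symbols of the C/D class (Snord). The tumours came from NDL(UCD), a transplantable line of a mouse ErbB2 mammary cancer model that was kept in culture and injected into uncleared mammary fat pads of female mice (strain given as FVB/NJ and FVB/N) aged 6 to 8 weeks. They were frozen at a width of 5 to 10 mm. All 3 are replicates of 1 group, and the series design states that each grew in another mouse. No normal gland or other tumour was compared. The NDL model is known to rest on an activated Erbb2 transgene under a mammary tumour virus promoter, and uncleared fat pads keep the host's own epithelium, fat and vessels. Ribosomal RNA was captured and removed, and 50 ng of the remaining RNA went into each strand-marked, randomly primed library.

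snoRNAs are short, stable nuclear RNAs that guide chemical modification of other RNAs, mainly ribosomal RNA. H/ACA RNAs carry the H and ACA boxes and direct pseudouridylation by the dyskerin complex, whereas C/D RNAs carry boxes C and D and direct ribose methylation by the fibrillarin complex. In mammals most are released from introns of host genes, many of which encode ribosomal proteins or are noncoding Snhg transcripts, and a few have other tasks such as cleavage of the ribosomal RNA precursor. Dividing cells make ribosomes at a high rate and need both classes.

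Sequences are shown first for 5 H/ACA RNAs, which together with Snora74a (not printed) hold most fragments of that class. They are GENCODE M21 transcripts (GRCm38, RNA sense, written with T). Capitals mark ACA at exactly 3 bases before the 3′ end, which the models of Snora81 and Snora28 do not have.
Snora81: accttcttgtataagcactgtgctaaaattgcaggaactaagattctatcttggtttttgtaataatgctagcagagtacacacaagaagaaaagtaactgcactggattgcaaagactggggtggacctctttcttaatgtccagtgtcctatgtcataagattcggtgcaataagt
Snora23: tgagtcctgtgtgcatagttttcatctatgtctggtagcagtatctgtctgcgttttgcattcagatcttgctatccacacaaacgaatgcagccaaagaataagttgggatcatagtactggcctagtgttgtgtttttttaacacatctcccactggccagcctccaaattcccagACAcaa
Snora65: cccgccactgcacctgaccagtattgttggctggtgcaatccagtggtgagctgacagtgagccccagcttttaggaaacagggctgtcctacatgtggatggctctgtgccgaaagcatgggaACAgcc
Snora21: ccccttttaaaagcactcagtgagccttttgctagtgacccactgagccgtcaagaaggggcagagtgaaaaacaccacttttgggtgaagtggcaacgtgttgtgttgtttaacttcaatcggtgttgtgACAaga
Snora28: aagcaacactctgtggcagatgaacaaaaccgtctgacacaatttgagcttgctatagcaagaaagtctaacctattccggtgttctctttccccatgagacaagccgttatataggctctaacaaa
Of 36 H/ACA models 30 (83.3%) had ACA at that position, against 0 of 66 C/D models and 1.94% of 6976 other transcripts of at least 50 and under 250 bases.

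The C/D RNAs shown are the 5 with the most fragments among loci shorter than 250 bases, and Snord93, whose FPKM was the highest of all. Capitals mark the first TGATGA (box C) and the last CTGA (box D), searched on the RNA strand only.
Snord17: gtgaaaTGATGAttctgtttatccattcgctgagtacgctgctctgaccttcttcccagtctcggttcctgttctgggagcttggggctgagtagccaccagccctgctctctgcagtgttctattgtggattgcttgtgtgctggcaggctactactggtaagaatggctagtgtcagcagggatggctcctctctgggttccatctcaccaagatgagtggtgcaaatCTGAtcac
Snord22: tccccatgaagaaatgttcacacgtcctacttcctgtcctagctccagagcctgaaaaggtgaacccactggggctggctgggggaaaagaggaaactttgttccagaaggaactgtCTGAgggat
Snord15b: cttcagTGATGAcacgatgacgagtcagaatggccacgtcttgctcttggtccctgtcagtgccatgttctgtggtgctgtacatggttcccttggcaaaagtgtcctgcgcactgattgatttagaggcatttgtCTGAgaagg
Snord15a: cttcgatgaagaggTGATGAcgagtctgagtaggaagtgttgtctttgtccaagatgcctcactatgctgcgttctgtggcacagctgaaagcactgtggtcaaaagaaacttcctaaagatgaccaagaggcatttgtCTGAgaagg
Snord57: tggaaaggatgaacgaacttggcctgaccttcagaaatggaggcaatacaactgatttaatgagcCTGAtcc
Snord93: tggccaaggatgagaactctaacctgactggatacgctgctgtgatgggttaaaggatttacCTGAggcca
CTGA was present in 66 of 66 C/D models but also in 50.1% of the other short transcripts. TGATGA was found in 44 of 66 C/D models (66.7%), in none of the 36 H/ACA models and in 5.43% of the other short transcripts, and it was absent in this exact spelling from the models of Snord22, Snord57 and Snord93. The class names in the tables thus followed the sequence boxes for most members. GENCODE models matched 102 of the 103 symbols, and Snord116 had none.

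The quantity deposited is FPKM, fragments divided by length and by library total, with an interval around it. The width of that interval gives the number of fragments behind a value (FPKM divided by its standard error, then squared), called implied fragments here. For members with fewer than 60 implied fragments this number lay within 0.02 of a whole number in 90.0%, 91.4% and 82.5% of non-zero values in tumours 1, 2 and 3. The libraries summed to 11698588, 12417558 and 13377729 implied fragments. All 6 luminal epithelial genes listed were above 1 FPKM (Krt8 at 147 ± 47.0 FPKM, SD, n = 3), against 54.2% of all 18028 symbols tested. So were 5 of 5 macrophage, 4 of 4 fibroblast and 3 of 3 endothelial genes, while 0 of 4 B-cell genes were. The lists thus show a mixed tissue and do not single out epithelium. The luminal list and its sums include Erbb2, which is also the gene of the model's transgene. In bulk tumours, fewer cells of a type and less RNA per cell cannot be told apart.

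The FPKM that 1 fragment was worth followed the width of the locus. A single fragment was worth a mean of 2223 FPKM at the 45-base locus of Snord93, 134 FPKM at the 63 bases of Snord57, 6.29 FPKM at the 126 bases of Snord22 and 0.835 FPKM at the 221 bases of Snord17. Most members of equal width had near-equal values: in tumour 1 the 4 loci of 68 bases listed above 0 ranged from 89.198 to 89.200 FPKM per fragment. Across 80 members under 250 bases with signal, width and log2 FPKM per fragment had a Spearman rho of -0.998 and a Pearson r of -0.95, a description of points that share the same libraries and the same length term. The length by which the fragments had been divided was a median of 0.0300 bases per base of locus, so FPKM of these loci is not per base in the usual sense. Width itself went with the number of fragments (Pearson r 0.71 and rho 0.62 with log2 summed fragments) and hardly with log2 mean FPKM (r -0.11 and rho -0.20) over the same members. Medians by width were 108 FPKM per fragment under 80 bases, 13.2 from 80 to under 120, 5.86 from 120 to under 150 and 1.52 from 150 to under 250 bases.

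**Figure D1:**
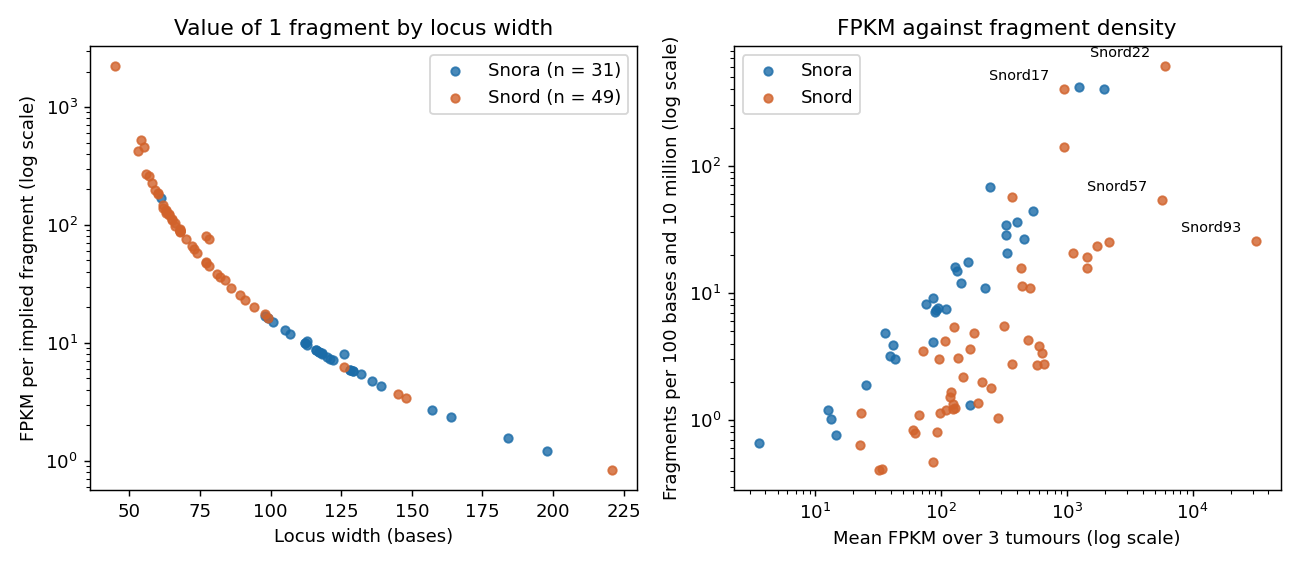
Left, FPKM per implied fragment (log axis) against locus width in bases for snoRNA loci with signal, where each point is 1 locus and the mean over tumours. The value falls from 2223 at 45 bases to 0.835 at 221 bases. Right, implied fragments per 100 bases of locus and 10000000 fragments (vertical log axis) against mean FPKM (horizontal log axis), where Snord93 is farthest right but not highest.

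Levels between members were therefore compared as implied fragments per 100 bases of locus and 10000000 fragments, called density below. Of the 106 rows under 250 bases with status OK, Snord93 ranked first by FPKM, 14th by density and 25th by fragments. Its FPKM was 42629 in tumour 1, 20986 in tumour 2 and 31400 in tumour 3, from 19, 9 and 15 fragments. The deposited interval ran from 23069 to 62188 FPKM in tumour 1 and from 6995 to 34976 FPKM in tumour 2, so these intervals overlapped. This locus alone made up 57.6%, 28.9% and 50.5% of all snoRNA FPKM but 0.509%, 0.117% and 0.368% of snoRNA fragments. Other narrow C/D loci also ranked high by FPKM. Snord57 (63 bases) was at 3643, 9535 and 3902 FPKM, Snord34 (66 bases, inside Rpl13a) at 1775, 2929 and 1753 FPKM, and Snord2 (68 bases, inside Eif4a2) at 2052, 1761 and 1415 FPKM. The 10 highest by FPKM and the 10 highest by density had 4 members in common.

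Most snoRNA fragments came from 5 loci: Snord17, Snora74a, Snord22, Snora81 and Snord15b. Together they held 79.8%, 82.8% and 76.2% of the fragments of the 106 rows in tumours 1, 2 and 3. All are 126 bases or wider. The remaining 101 rows had a median of 2 fragments in each tumour.

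Snord22 (mm9 chromosome 19, 8800356 to 8800481, inside the Snhg1 locus) encodes U22, a C/D RNA known for a part in processing of the small-subunit ribosomal RNA. Its density, the highest of all members, was 522, 870 and 432 in tumours 1, 2 and 3 (608 ± 231, SD, n = 3). Its FPKM was 4883, 8981 and 4313. Tumour 2 stood above both others, by 2.08-fold against tumour 3, and its deposited interval (8494 to 9468 FPKM) did not touch theirs.

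Snora74a, an H/ACA RNA also called U19 (mm9 chromosome 18, 35716684 to 35716881), followed at a density of 413 ± 223 (SD, n = 3). It had 679, 1648 and 732 fragments, and 829, 2090.05 and 833 FPKM. Snora81 (mm9 chromosome 16, 23110843 to 23111006), inside the gene of the translation factor Eif4a2, had 735, 1343 and 366 fragments and 1748, 3320.1 and 812 FPKM. Its mean density of 403 ± 247 was close to that of Snora74a, and the spread between tumours was far larger than this gap. Snord17, a C/D RNA inside Snx5 (mm9 chromosome 2, 144091718 to 144091938), had 605, 1710 and 1035 fragments and a density of 402 ± 199.8. The order of these 3 loci by mean density was thus not separated by the replicates.

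The pair Snord15b and Snord15a, which guide methylation of the large-subunit ribosomal RNA, lie in the gene of the ribosomal protein Rps3. Snord15b had 192, 330 and 246 fragments (density 141 ± 37.2) and Snord15a 62, 110 and 150 fragments (density 57.1 ± 20.1, SD, n = 3). Snord15b was the higher of the pair in 3 of 3 tumours. Snora23, an H/ACA RNA inside the import factor gene Ipo7, had 113, 285 and 63 fragments (density 67.6 ± 51.3). Snord57, which guides methylation of the small-subunit ribosomal RNA, lies in the gene of Nop56, itself a core C/D protein, and had 27, 68 and 31 fragments. Its density of 53.4 ± 29.0 did not differ from that of Snord15a beyond the spread. Among the remaining H/ACA RNAs Snora65 (44.2 ± 12.1), Snora28 (36.1 ± 15.6), Snora21 (34.3 ± 22.6), Snora3 (28.4 ± 15.4) and Snora33 (26.7 ± 11.4) formed a run of densities whose neighbours lay within their SDs (n = 3). Of these, 4 lie in ribosomal protein genes (Rpl12, Rpl23, Rpl27a and Rps12) and Snora28 in the gene of the translation factor Eif5.

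**Figure D2:**
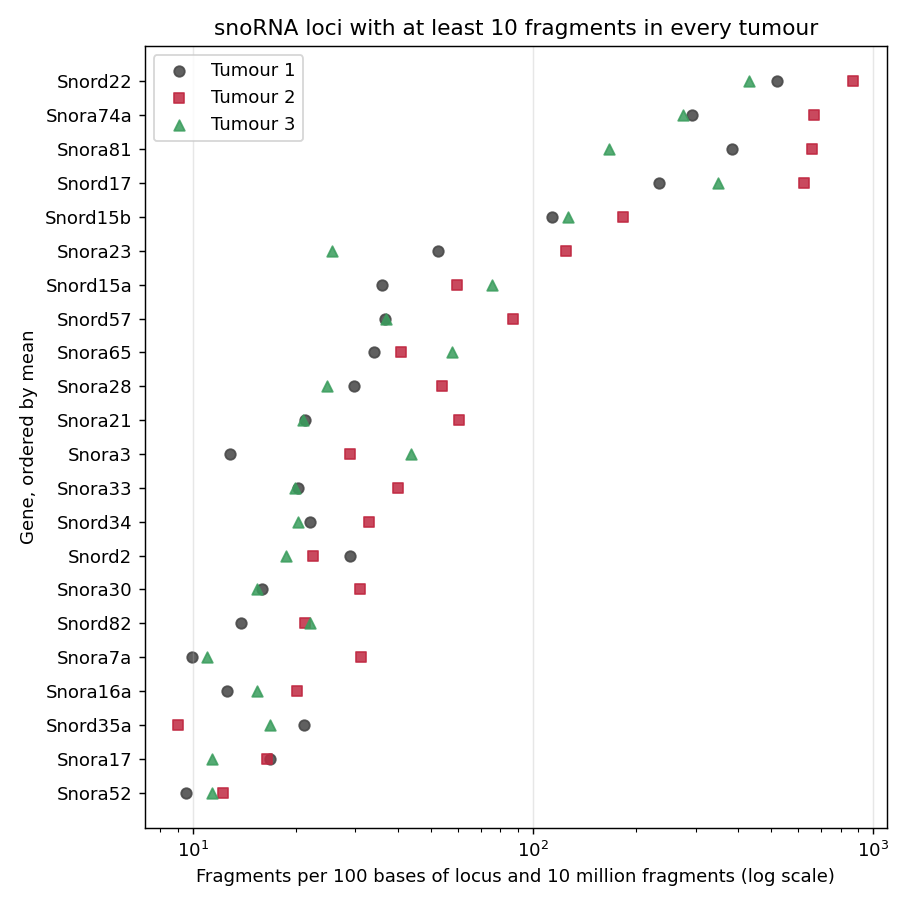
Implied fragments per 100 bases of locus and 10000000 fragments (log axis) for the 22 snoRNA loci under 250 bases with at least 10 fragments in every tumour, 1 point per tumour, ordered by mean. Snord22 is highest in the plot, and the square of tumour 2 lies to the right of both other tumours in most lines.

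More H/ACA than C/D loci had signal in every tumour. The 6 symbols with another status than OK (Snora24, Snora26, Snord7, Snord1a, Snord43 and Snord45c) are not counted here. Of 34 H/ACA symbols with status OK, 27 were listed above 0 in all 3 tumours and 3 in none. Of 63 C/D symbols, 24 were above 0 in all 3 and 14 in none. A lower interval bound above 0 in every tumour, which takes more than about 4 fragments, was reached by 20 H/ACA and 15 C/D symbols, against 62.7% of all 21699 symbols. At least 10 fragments in every tumour were found for 13 H/ACA and 10 C/D symbols (59.0% of all symbols) and for 2.20% of 545 other symbols under 250 bases. Listed at 0 in all tumours were 17 of 97 snoRNA symbols, against 16.9% of all symbols and 74.7% of the other short ones. The H/ACA loci were wider (median 118 bases) than the C/D loci (median 68 bases). Among loci of 80 to under 120 bases, 1 of 16 H/ACA rows and 11 of 20 C/D rows were listed at 0 throughout, and 10 of these 11 are the rows of Snord116 and Snord116l2.

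Which class looked higher depended on the scale. Over rows with signal, the C/D median minus the H/ACA median was 0.73 ± 0.43 log2 units (SD, n = 3) in FPKM, and -1.50 ± 0.28 in fragments per base of locus. The sign thus reversed with the length term, and no test was made over members.

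A listed 0 allows very different levels at different widths. A count of 0 allows up to 3 fragments, which is 6669 FPKM at the 45-base loci of Snord42a and Snord45b, 593 FPKM at the 59 bases of Snord52, Snord38a and Snord110, and 23.6 FPKM at Snora35, the widest of these loci (counting error only). Snora35 is known from brain, where it lies in an intron of a serotonin receptor gene. Snord116, a family of imprinted and mainly neuronal RNAs from the region known for Prader-Willi syndrome, had 8 rows and Snord116l2 had 2, all listed at 0 in all tumours, with 72.4 FPKM allowed per row. Both rows of Snora19 were also at 0. Reads shared between copies of a repeated symbol could have been split or dropped, so its single rows are uncertain. The same holds for Snord58b, whose 2 rows on chromosomes 14 and 18 held 5, 0 and 0.25 fragments each.

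Against a level of 1 FPKM, 27 of 31 H/ACA and 24 of 49 C/D symbols listed above 0 in some tumour were higher by limma at a Benjamini-Hochberg adjusted p under 0.05 (54.2% of all 18028 symbols tested). None was lower (32.5% of all). The 51 members called were as many as those above 0 in all tumours, and 1 fragment is worth more than 1 FPKM at nearly every locus, so this test says little beyond detection. A level of 100 FPKM was exceeded by 9 H/ACA and 16 C/D symbols, against 1.30% of all symbols, and 5 members were below it (17334 of all 18028). Under 80 bases 1 fragment was worth a median of 108 FPKM, so for such loci this level too says little beyond detection. Snord22 lay 12.35 ± 0.34 log2 units (SE) above 1 FPKM with an adjusted p of 1.1e-07.

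Snord123 is an exception in the list. Its row spans 6161 bases of mm9 chromosome 15 (32170323 to 32176483), where RefSeq (GRCm38.p6) gives the RNA 88 bases, and it had 313, 482 and 386 fragments at 1.81, 2.92 and 2.10 FPKM. This row was left out of all statements that relate levels to width, but it is in the row counts on annotated length that follow. In 97 of the 105 rows with a RefSeq length, the locus width was equal to it. GENCODE models were longer than the locus in 89 of 105 rows, by a median of 17.5 bases for H/ACA and 12 for C/D loci over the longer ones. For Snord93 the GENCODE model has 71 bases, 26 more than the locus that set its FPKM.

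For log2 fragments per 100 bases over 80 members, pairs of tumours had a Pearson r of 0.79 to 0.82, as a description. Spearman's rho was 0.75 to 0.80 over these members. The order was more alike for the 31 H/ACA members (rho 0.85 to 0.89) than for the 49 C/D members (0.59 to 0.69). The snoRNA total differed between tumours: tumour 2 was highest. snoRNA loci under 250 bases held 3191, 6215 and 3046 of every 10000000 fragments in tumours 1, 2 and 3. Without the 5 largest loci the values were 644, 1067 and 724. Of the 23 symbols with at least 10 fragments in every tumour, Snord123 included, 18 had their highest FPKM in tumour 2 (78.3%), against 24.2% of the 12807 symbols that met this minimum. Of these 12807, 28.9% were highest in tumour 1 and 46.9% in tumour 3, where 2 and 3 snoRNAs were. Among the 12 other symbols under 250 bases that met the minimum, 8.33%, 58.3% and 33.3% were highest in tumours 1, 2 and 3. The median log2 ratio of tumour 2 to the mean of tumours 1 and 3 was 0.73 over the 23 members, 0.05 over all 12807 and 0.56 over the 12 other short ones.

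Both classes showed it: 11 of 13 H/ACA and 7 of 10 C/D symbols were highest in tumour 2. The log2 ratio was largest for Snora23 (1.79), Snora7a (1.67), Snora21 (1.61), Snora81 (1.37) and Snord57 (1.34). It was smallest for Snord35a, whose FPKM of 265 in tumour 2 was below 562 and 476 in tumours 1 and 3 (-0.97). Snora65 (392, 518 and 701 FPKM), Snora3 (138, 342 and 500.1 FPKM) and Snord15a (215, 396 and 485 FPKM) were highest in tumour 3. With the GC trend of each tumour removed, 16 of 23 were highest in tumour 2 (24.8% of all symbols) and the median log2 ratio was 0.61. Tumour 2 had 0.962 times the fragments per FPKM of tumour 1 (its relative depth), although its fragment total was larger (12417558 against 11698588). Of the 5 basal epithelial genes, 2 differed between tumours with their highest level in tumour 2 (Krt14 at 2.80, 10.4 and 1.07 FPKM, and Acta2 at 18.3, 41.5 and 38.8 FPKM). The list summed to 21.4, 52.1 and 40.1 FPKM, and its members Krt5, Krt6b and Trp63 were below 1 FPKM in every tumour. The summed levels of luminal (1098, 1430 and 1287 FPKM), fibroblast (147, 277 and 244 FPKM) and endothelial genes (9.66, 15.4 and 14.2 FPKM) were also highest in tumour 2. In these lists 0 of 6, 1 of 4 and 1 of 3 genes were called, and those called (Col3a1 and Cdh5) were highest in tumour 3. Of the luminal genes, Epcam, Cd24a and Erbb2 were highest in tumour 1, Krt8 in tumour 3, and Krt18 and Cdh1 in tumour 2. The sums of macrophage (245, 440 and 865 FPKM) and adipocyte genes (59.2, 43.4 and 187 FPKM) were highest in tumour 3, with 4 of 5 and 2 of 3 genes called. The part of depth or of any of these lists in the result was not tested.

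**Figure D3:**
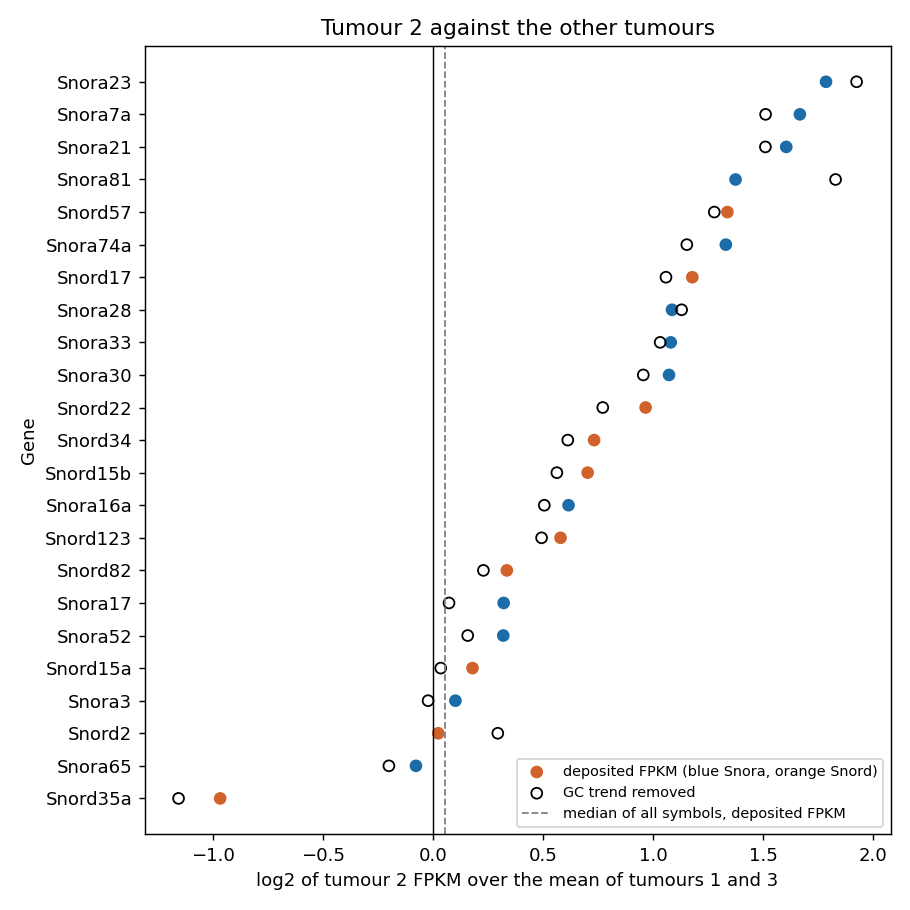
Log2 ratio of the FPKM in tumour 2 to the mean of tumours 1 and 3 for the 23 symbols with at least 10 fragments in every tumour. Filled points are deposited values, open points have the GC trend removed, and the dashed line is the median of all symbols (0.05). All but Snora65 and Snord35a lie right of 0 as deposited.

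Cochran's Q over the deposited errors called 14 of 31 H/ACA and 10 of 49 C/D symbols different between tumours (Benjamini-Hochberg adjusted p under 0.05 and a ratio of at least 2), against 32.1% of 11193 symbols tested. Snord58b is among the 10 only with its 2 rows added up, and taken row by row it was not called (Q adjusted p = 0.146), which leaves 9 C/D symbols. The members' share, 24 of 80, was near that background. It was not near it with the GC trend removed, where 29 of 80 were called, against 18.7% of all symbols. As deposited, 10.4% of the 134 other short symbols were called. Of the 24 members called, 4 were highest in tumour 1, 16 in tumour 2 and 4 in tumour 3, against 48.2%, 11.2% and 40.6% of the 3597 symbols called. Between tumours 2 and 3 alone 15 of 77 members were called (5.71% of all symbols), between tumours 1 and 2 alone 18 of 75 (14.1%), and between tumours 1 and 3 alone 9 of 75 (29.4%). Without tumour 2, 4 H/ACA and 5 C/D symbols were called, and without tumour 1, 12 and 3. Q covers the counting error of each library and not the spread between animals, and 11 of the 24 members called had fewer than 10 fragments in some tumour.

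Among members with many fragments the counting error is small, and so is the p of Q for a given ratio. Snora81 differed by 4.09-fold between tumours 2 and 3 (Q adjusted p = 4.7e-145), Snord17 by 2.94-fold between tumours 2 and 1 (3.5e-122), Snora74a by 2.52-fold (2.4e-109), Snord22 by 2.08-fold (6.6e-59) and Snora23 by 5.04-fold between tumours 2 and 3 (2.1e-34). Snora21 had 32, 96 and 36 fragments (3.12-fold, Q adjusted p = 1.1e-08) and Snora7a 15, 50 and 19 (3.46-fold, 4.0e-05). In these 7 loci no other tumour reached tumour 2. Snord15b differed past the p threshold (1.1e-09) but by 1.79-fold, under the ratio required.

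Some of the largest ratios rested on few fragments. Snora43 had 15, 1 and 9 fragments (14.4-fold, Q adjusted p = 0.00029) while Snora17, in the same Snhg7 locus, had 26, 27 and 20 (1.48-fold, Q adjusted p = 0.355). Snord104 had 1, 11 and 3 fragments, Snora69 10, 6 and 1, Snord16a 9, 1 and 4, Snora62 10, 5 and 30, Snora44 5, 20 and 7, and Snord47 4, 17 and 18. Snord83b had 0, 2 and 9. The Q adjusted p was 0.033 for Snord16a and 0.015 for Snord104. These loci did not share a highest tumour. With the GC trend removed, Snora30, Snora69 and Snord58b no longer passed.

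Host genes were read from the mm9 coordinates of the deposited loci, without strand. Of the 113 rows, 93 lay inside the locus of exactly 1 other gene, which gave 66 different genes. By symbol, 28 of these rows lay in genes of ribosomal proteins and 11 in Snhg genes or Gas5. Hosts with clone names, such as 2410006H16Rik, were not sorted, so noncoding hosts may be undercounted. Among 89 rows inside exactly 1 other gene and with status OK, 55 had a mean FPKM above that of the enclosing gene. The median log2 difference over rows with signal was 1.45 ± 0.34 (SD, n = 3), a value that carries the length effect described above. Fragments of unspliced host RNA that cover a snoRNA locus cannot be told apart from the snoRNA.

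Level of host and density of snoRNA were weakly related: across 72 rows with signal, Spearman's rho was 0.41 and Pearson's r 0.32, as a description. Rpl13a, the host of 4 C/D RNAs known from studies of lipotoxic stress, was at 411, 717.5 and 791 FPKM. Of its members, Snord34 had 17, 27 and 18 fragments, Snord35a 22, 10 and 20, Snord32a 13, 13 and 8 and Snord33 3, 8 and 4. By FPKM 3 of the 4 were highest in tumour 2 and Snord35a in tumour 1, but none was called between tumours (Q adjusted p from 0.093 for Snord35a to 0.308 for Snord32a). Of 20 snoRNAs under 250 bases with a single host and at least 10 fragments in every tumour, 6 had their highest FPKM in the same tumour as the host. These were Snora33 and Snora21 (tumour 2), Snora3, Snora65 and Snord15a (tumour 3) and Snord2 (tumour 1). In 8 pairs the snoRNA was highest in tumour 2 and the host in tumour 3, and in 1 pair (Snord35a and Rpl13a) in tumours 1 and 3. In the other 5 the snoRNA was highest in tumour 2 and the host in tumour 1: Snora81 in Eif4a2, Snord17 in Snx5, Snora28 in Eif5, Snora23 in Ipo7 and Snord82 in Ncl. Snord82 was nearly equal in tumours 2 and 3 (1669 and 1664 FPKM) and not called (Q adjusted p = 0.244). With the GC trend removed, Snord82 (586, 1823 and 2527 FPKM) and Snord2 (1032, 2063 and 2333 FPKM) were highest in tumour 3. Snora17 (187, 144 and 86.5 FPKM) was then highest in tumour 1, and Snora81 (856, 3932 and 1357 FPKM) stayed highest in tumour 2. The tumour with the highest host level was read from deposited FPKM only. Eif4a2 was at 69.5, 42.9 and 21.9 FPKM, and Ipo7 at 43.9, 13.1 and 10.5 FPKM. Snord2, also inside Eif4a2, had 23, 19 and 17 fragments and was not called (Q adjusted p = 0.513). In density Snora81 (403 ± 247) was far above Snord2 (23.4 ± 5.17), although both come from 1 host. Snhg1, the host of Snord22, was at 11.8 FPKM on average.

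Ncl, the gene of the nucleolar protein nucleolin, was at 19.2, 8.97 and 8.07 FPKM and highest in tumour 1. Its Snora75 had 10, 9 and 14 fragments and its Snord82 11, 18 and 20 (981, 1669 and 1664 FPKM), and neither was highest in tumour 1. Within other hosts the members also differed in level. In Nop56 (25.6, 34.3 and 34.4 FPKM) Snord57 was well covered while Snord110 was listed at 0. In Rps12 (116, 209.5 and 187 FPKM) Snora33 had 25, 52 and 28 fragments and Snord100 2, 0 and 0. In Snhg12 Snora16a (20, 34 and 28 fragments) and Snora44 were detected throughout, Snord99 had 4, 0 and 3 fragments, and Snora61 was at 0. In each of these 3 hosts the member with the most fragments was the widest, but other hosts differed. In Ncl the narrower Snord82 (68 bases) had more fragments than Snora75 (116 bases). In Rps3 Snord15b (145 bases) had more than Snord15a (148 bases), and in Rpl13a the narrowest member, Snord34 (66 bases), had the most.

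**Figure D4:**
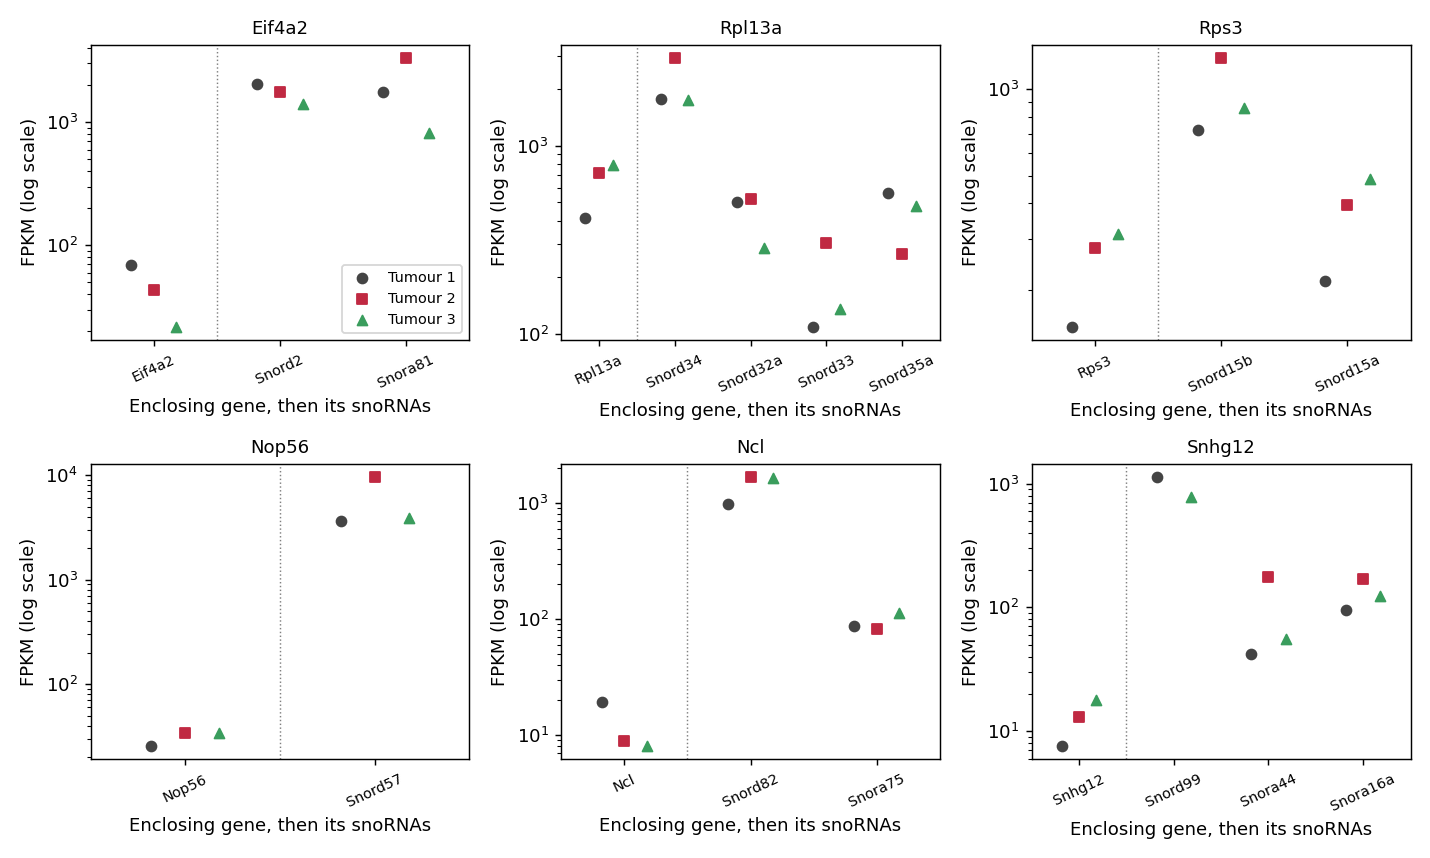
FPKM (log axis) of 6 enclosing genes and of the snoRNAs inside them that had signal, 1 point per tumour, with the enclosing gene left of the dotted line. A value of 0 is not drawn. In Eif4a2 the host was highest in tumour 1 and Snora81 in tumour 2. By FPKM 3 of the 4 snoRNAs of Rpl13a were highest in tumour 2, but none was called between tumours. Among them Snord32a had 13 fragments in both tumours 1 and 2.

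The genes of all 8 core proteins of the snoRNA particles were above 1 FPKM by limma. In the C/D particle these are Fbl, the methyltransferase fibrillarin (11.7 ± 4.18 FPKM), the scaffolds Nop56 (31.4 ± 5.05 FPKM) and Nop58 (16.6 ± 15.1 FPKM), and the RNA-binding Nhp2l1 (47.1 ± 12.1 FPKM). In the H/ACA particle they are Dkc1, the pseudouridine synthase dyskerin (3.94 ± 2.56 FPKM), Nhp2 (32.5 ± 12.3 FPKM), Nop10 (42.0 ± 12.1 FPKM) and Gar1 (1.75 ± 0.573 FPKM, limma adjusted p = 0.047). Of all 23 particle and assembly genes 20 were above 1 FPKM (54.2% of all symbols) and none below.

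Between tumours 7 of these 23 genes were called (32.1% of all symbols), 3 with their highest level in tumour 1, 4 in tumour 3 and 0 in tumour 2. Nop58 was at 33.8, 9.96 and 5.93 FPKM and Dkc1 at 6.78, 3.23 and 1.81 FPKM, both highest in tumour 1. Fbl (7.79, 11.2 and 16.1 FPKM) and Nhp2 (20.1, 32.6 and 44.7 FPKM) were highest in tumour 3. These levels are as deposited, without removal of the GC trend. Of all symbols called, 11.2% were highest in tumour 2, so a count of 0 of 7 is near the background. Snord11 and Snord70 lie in Nop58, with 0, 0 and 5 and with 1, 1 and 0 fragments.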

How the data were processed

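Total RNA of 3 tumours of 1 group was analysed, numbered in accession order. Per the file headers, the deposited tables hold FPKM, its interval and a status for each gene. TopHat, Cufflinks and mm9 appear in the submitters' processing notes, without roles. The strand setting is unknown here. Locus starts were counted from 1 on mm9.

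The half-width of an interval was taken as 2 standard errors, and a tumour at 0 was given the error of 1 fragment. Rows of a repeated symbol were added up, and symbols with another status than OK were left out of tests. Levels of 18028 symbols were tested with limma 3.58.1 (R 4.3.3) on log2((FPKM + 0.1)/(1 + 0.1)), an intercept-only fit with trend and robust moderation. For Cochran's Q (df = 2), 11193 symbols with a mean of at least 1 FPKM were used. Both were run on simulated data: Q on counts with counting error only and changes in genes with many fragments, and limma on normal noise. These simulations did not cover changes at loci with few fragments or, for Q, spread between animals. GC trends were fitted by lowess (span 0.3) on GENCODE M21 transcripts by gene name, over loci of at least 300 bases. No count test was run, since FPKM are not counts.

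Named members are the 8 of each class with the most fragments, the 4 of each with the highest FPKM, the 10 called with the largest ratios, those with repeated rows or another status, and enclosing genes. Other members were chosen after their values were seen. Members and lists were chosen with earlier results of these data known. Genes above 1 FPKM (54.2% of all symbols) were 5 of 5 for macrophages, 2 of 5 for T cells and 4 of 4 for fibroblasts. They were 3 of 3 for endothelium, 2 of 3 for adipocytes, 1 of 3 for skeletal muscle and 2 of 5 for basal epithelium.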

Additional observations from a re-analysis of the deposited data

Results flagged for a closer look

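Snora24 and Snora26 had a status other than OK in every tumour and so took no part in any comparison, yet both had signal above the 3 fragments that a count of 0 allows. Snora24, an H/ACA RNA inside Snhg8, was at 478, 686 and 631 FPKM in tumours 1, 2 and 3 (mean 598), from 41.2, 56.97 and 56.8 implied fragments. Snora26 was at 168, 346 and 168 FPKM (mean 227), from 11.3, 22.7 and 11.8 implied fragments, highest in tumour 2. Their implied fragments were not whole, so these values are uncertain.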

How the results depend on the processing

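Of 79 values recomputed under alternatives, 67 stayed within 1.5 times (counts) or within 1 SD (differences) of the value reported, 10 moved further and 2 reversed. At a level of 100 FPKM, 9 H/ACA symbols and 0 particle and assembly genes were higher. Leaving out 1 tumour at a time gave 4 to 12 H/ACA and 3 to 7 C/D symbols that differed between tumours, with the fewest H/ACA calls without tumour 2 and the fewest C/D calls without tumour 1. With at least 10 fragments required, 13 H/ACA symbols were detected in every tumour. The C/D minus H/ACA median was 3.01 for loci of at least 100 bases, where the C/D side is only Snord15a, Snord15b, Snord17 and Snord22. It was 2.50 for members with a lower bound above 0, and reversed to -1.50 per base of locus. The snoRNA minus host median was 1.84 and 1.82 under these same settings, and reversed to -1.31 per base, where the width of the host includes its introns. Scaling moved the number highest in tumour 2 to between 16 and 18 of 23. These 4 scalings, added after seeing the data, gave 20.3%, 16.1%, 24.8% and 24.2% of all symbols. Removing the GC trend called 29 members, of which 21 were also called as deposited, with 18.7% of all symbols called (2083, against 3597). Without a minimum ratio 27 members and 90.5% of all symbols passed. Calls above 1 FPKM were 62.5% of all calls, 73.4% with equal FPKM totals and 81.5% with a minimum mean of 0.1 FPKM, while 51 members were above and 0 below in each. Leaving out 1 tumour gave 24 to 28 H/ACA, 27 to 29 C/D and 17 to 19 particle genes above 1 FPKM. No paired analysis was possible because there is 1 group and the labels give no replicate numbers. The cause of these shifts was not tested. Loci under 80 bases had a median of 0, 0 and 0.25 fragments, which limits what can be read from most of them, and 4 had at least 10 fragments in every tumour.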
